A study of Mus musculus with 16 samples.

Results

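Trimethylation of lysine 4 on histone H3 (H3K4me3) was mapped in immortalized mouse embryonic fibroblasts, and the deposited list held 26654 regions of the genome. The narrow regions described here, 200 to 500 bp wide, were chosen by their width alone and numbered 10094 of the 26654 (37.9%). Width is therefore not a finding, and no test was made on it. They covered 2.74 Mb, or 5.43% of all bases in the list. The rest of the list was 2897 middle regions of 600 to 1000 bp, covering 2.25 Mb, and 13663 wide regions of over 1000 bp, covering 45.4 Mb. The median width was 200 bp for narrow, 800 bp for middle and 3100 bp for wide regions.

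H3K4me3 is a histone mark of active and poised gene starts. It is laid down by the SET1 and MLL complexes, which are drawn to unmethylated CpG-rich DNA by CXXC-domain proteins, and broad domains of it usually cover the starts of expressed genes. Small patches are also seen at enhancers, where monomethylation of the same lysine prevails, and at starts held by Polycomb together with H3K27me3. Succinylation of lysine is an acyl modification derived from succinyl-CoA, and the antibody used against it here recognizes succinyllysine in chromatin without naming the protein or the residue.

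The study compared 2 fibroblast lines that both carried a reverse tetracycline transactivator at Rosa26 and a Cre recombinase under its control. The experimental line, R26M2rtTA/+;TetOcre;Sdhcfl/fl, had both copies of Sdhc floxed, and the control line, R26M2rtTA/+;TetOcre;Sdhcfl/wt, had 1 floxed and 1 wild-type copy. Sdhc encodes a membrane subunit of succinate dehydrogenase, the enzyme that oxidizes succinate. Both lines received doxycycline at 1 µg/mL and were collected at day 16, so the controls carried the induced Cre and a floxed copy as well. Each genotype was 1 cell line, with 2 samples per line for each of 3 antibodies and for input, 16 samples in all. Chromatin was digested with micrococcal nuclease, sonicated and then immunoprecipitated with antibodies to H3K4me3, H3K27me3 or succinyllysine.

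Each antibody had 1 list of positions for its 4 samples, without heights, scores or values for single samples, so read depth is unknown and the fl/fl and fl/wt lines cannot be told apart in any value below. All intervals are exact 95% intervals for shares and Newcombe 95% intervals for differences. They cover counting error only, since neighbouring regions are not independent and no list was repeated. The labelled cell type was set beside gene lists that were chosen with earlier results of these data known. A wide H3K4me3 region lay at the start of 25 of 30 fibroblast and matrix genes. It did so at 7 of 30 neuronal, 2 of 28 muscle, 7 of 29 haematopoietic and endothelial, 1 of 20 hepatocyte and 7 of 20 epithelial genes. Over all protein-coding genes the share was 53.2%. All 4 succinate dehydrogenase subunit genes, Sdhc included, had a wide region at the start. A region at the start does not report on the floxed part of Sdhc.

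Few narrow regions lay at gene starts, and those that did had promoters of very different base composition. To show the range, 6 promoters from genes named by a fixed rule are printed, each from 250 bases before the annotated start to 50 after it, read 5′ to 3′ on the gene's strand from RefSeq for GRCm38.p6, whose coordinates are those of mm10. Capitals mark CpG dinucleotides. At all 6 genes the widest H3K4me3 region within 1000 bp of the start was narrow. The first pair had H3K27me3 regions of over 1000 bp within 1000 bp of the start, the second pair was CpG-rich with little or no H3K27me3, and the third pair was CpG-poor.
Esrrb, chr12:86421394-86421693, plus strand: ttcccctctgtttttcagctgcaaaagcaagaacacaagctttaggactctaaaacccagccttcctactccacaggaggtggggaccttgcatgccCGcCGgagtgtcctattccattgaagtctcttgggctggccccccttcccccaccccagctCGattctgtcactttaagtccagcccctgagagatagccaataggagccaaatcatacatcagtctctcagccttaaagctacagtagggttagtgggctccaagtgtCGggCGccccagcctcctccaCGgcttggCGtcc
Egr4, chr6:85513540-85513839, minus strand: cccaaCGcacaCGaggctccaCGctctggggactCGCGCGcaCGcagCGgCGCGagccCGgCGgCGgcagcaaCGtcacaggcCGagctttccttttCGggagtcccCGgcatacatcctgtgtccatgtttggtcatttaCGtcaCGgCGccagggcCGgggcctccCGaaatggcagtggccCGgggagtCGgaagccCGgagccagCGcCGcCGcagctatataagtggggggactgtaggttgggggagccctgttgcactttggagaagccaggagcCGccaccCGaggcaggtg
Dazl, chr17:50293571-50293870, minus strand: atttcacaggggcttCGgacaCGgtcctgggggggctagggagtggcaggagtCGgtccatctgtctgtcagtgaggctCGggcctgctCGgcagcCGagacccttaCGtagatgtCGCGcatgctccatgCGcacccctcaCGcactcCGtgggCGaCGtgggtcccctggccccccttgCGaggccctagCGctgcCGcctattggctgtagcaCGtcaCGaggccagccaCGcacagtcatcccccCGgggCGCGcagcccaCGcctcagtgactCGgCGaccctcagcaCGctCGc
Slitrk5, chr14:111675777-111676076, plus strand: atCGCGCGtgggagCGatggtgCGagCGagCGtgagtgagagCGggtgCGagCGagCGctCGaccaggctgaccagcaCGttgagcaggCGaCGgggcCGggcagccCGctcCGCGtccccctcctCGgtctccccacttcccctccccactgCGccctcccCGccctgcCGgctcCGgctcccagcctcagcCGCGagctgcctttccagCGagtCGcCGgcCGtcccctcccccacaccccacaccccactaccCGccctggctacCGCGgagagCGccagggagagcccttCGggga
Cyp3a11, chr5:145879805-145880104, minus strand: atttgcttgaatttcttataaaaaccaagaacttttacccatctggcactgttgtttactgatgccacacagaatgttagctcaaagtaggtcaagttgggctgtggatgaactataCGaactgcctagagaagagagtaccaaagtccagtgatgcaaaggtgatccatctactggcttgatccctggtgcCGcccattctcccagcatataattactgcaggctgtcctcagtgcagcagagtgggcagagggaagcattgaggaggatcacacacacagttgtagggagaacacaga
Olfr1132, chr2:87635696-87635995, minus strand: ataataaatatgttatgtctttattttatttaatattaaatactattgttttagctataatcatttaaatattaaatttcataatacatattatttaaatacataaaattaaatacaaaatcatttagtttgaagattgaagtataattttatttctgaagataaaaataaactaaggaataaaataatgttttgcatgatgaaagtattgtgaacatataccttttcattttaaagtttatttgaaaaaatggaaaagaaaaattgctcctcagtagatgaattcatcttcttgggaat

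Esrrb encodes an orphan nuclear receptor of pluripotent cells, and its window held 7 CpG. A 200 bp H3K4me3 region at chr12:86421501-86421700 covered the start and 193 of the 300 bases shown. This start lies inside the gene, which begins at chr12:86361117. Egr4, an immediate-early zinc finger factor, had 30 CpG and a 300 bp region 212 bp from the start that shared 39 of the bases shown. Dazl, a germ cell RNA-binding protein, had 28 CpG and a 300 bp region 920 bp from the start. Slitrk5, a neuronal transmembrane protein, had 35 CpG and a 400 bp region 774 bp from the start. The Dazl and Slitrk5 regions shared no base with the windows shown. Cyp3a11, a cytochrome P450 of the liver, had 2 CpG, and its 400 bp region shared 104 of the bases shown. Olfr1132, an olfactory receptor gene, had no CpG at all, and its 200 bp region covered the start and 105 of the bases shown. The bases from its annotated start begin with ATG. That start may thus be a start codon, and the window need not hold the promoter.

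Most narrow regions lay far from wide H3K4me3. The median distance from a narrow region to the nearest edge of a wide region was 454.6 kb, with quartiles of 242.6 and 773.2 kb. Middle regions had a median of 3.5 kb, with quartiles of 0.1 and 52.0 kb. Positions taken every 5000 bp along the genome, 538585 in all, had a median of 158.8 kb. The typical narrow region was therefore farther from a wide region than both the middle regions and an evenly spaced position.

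Within 5000 bp of a wide region were 606 narrow regions (6.004%, interval 5.55 to 6.49%) and 51.9% of middle regions, a difference of -45.9 percentage points (interval -47.8 to -44.0). The share of the genome within that distance was 6.01%, close to the narrow share. The genome share includes the wide regions themselves, in which no narrow region can lie. Within 50000 bp were 958 narrow regions (9.49%, interval 8.93 to 10.1%) and 74.6% of middle regions, a difference of -65.1 points (interval -66.7 to -63.4). There the genome share was 28.8%, well above the narrow share.

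**Figure D1:**
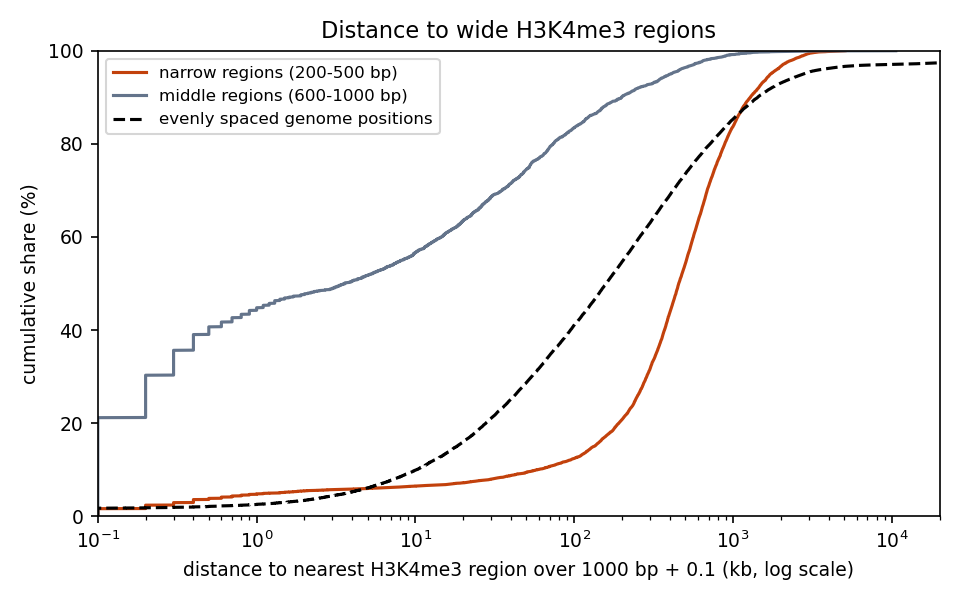
Cumulative share of narrow H3K4me3 regions, middle H3K4me3 regions and evenly spaced genome positions (vertical axis, percent) against the distance to the nearest H3K4me3 region over 1000 bp (horizontal axis, kb plus 0.1, log scale). The narrow curve stays below 10% up to 50 kb and then climbs steeply to reach its median of 454.6 kb, to the right of the genome curve with its median of 158.8 kb. Genome positions farther away than the axis shows keep the dashed curve under 100%.

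The narrow regions fell into a small close set and a large remote one. Of all 10094, 166 (1.65%) abutted a wide region, against 1.71% of genome positions that fell in or beside one. A further 332 (3.29%) lay 1 to 1000 bp away, against 0.914% of genome positions. Over 1000 and up to 5000 bp away were 108 (1.07%, against 3.41%), and over 5000 and up to 50000 bp away were 352 (3.49%, against 22.7%). The next bin, up to 100 kb, held 297 (2.94%, against 12.3%). From there to 1 Mb the order turned, with 7201 narrow regions (71.3%) against 44.3% of genome positions. The last 1638 (16.2%) lay over 1 Mb away, against 14.7% of genome positions.

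Of the 606 narrow regions within 5000 bp of a wide region, 234 lay on the downstream side of the wide region in the direction of the annotated start that it held, and 118 on the upstream side. For 47 the wide region held starts on both strands, and for 207 it held no annotated start. Most wide regions had no narrow neighbour: 13055 of 13663 had 0 within 5000 bp, 539 had 1, 55 had 2, 13 had 3 and 1 had 5. The wide region with 5 was at chr7:127586501-127590300, 3800 bp wide, and held the start of Ccdc189. Of the next 4 by position, each with 3, a pair lay near the start of Bcl11a, a zinc finger repressor of blood and brain, at chr11:24075601-24077800 and chr11:24079301-24080500. The others were at chr12:109453401-109454500, 578 bp from the start of the imprinted gene Dlk1, and at chr14:50943701-50946000 over the start of Pnp, which encodes purine nucleoside phosphorylase.

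Among themselves the narrow regions changed with width. The 5825 regions of 200 bp had a median distance of 512.6 kb to a wide region, and 1.60% lay within 5000 bp of one. The 2224 regions of 300 bp had 464.0 kb and 5.13%, the 1191 of 400 bp had 377.2 kb and 10.8%, and the 854 of 500 bp had 83.6 kb and 31.6%. The share at a gene start was 2.25%, 3.33%, 7.05% and 14.2% at 200, 300, 400 and 500 bp. Wider narrow regions were thus nearer to wide regions and to gene starts.

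Just inside and just outside the width limit the values differed. At 500 bp 31.6% of regions lay within 5000 bp of a wide region, against 54.8% of 727 at 600 bp and 52.2% of 638 at 700 bp. The median distance to a wide region was 83.6 kb at 500 bp, 1.3 kb at 600 bp and 2.8 kb at 700 bp. At a gene start were 14.2% at 500 bp, 23.8% at 600 bp and 27.7% at 700 bp, and between genes 46.0%, 30.7% and 31.4% at the same widths.

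Relative to protein-coding genes, most narrow regions were intergenic. A region was counted at a gene start when its midpoint lay within 1000 bp of the start. This held for 410 narrow regions (4.06%, interval 3.69 to 4.47%), 31.0% of middle regions and 52.8% of wide regions. Over H3K4me3 regions of all widths it held for 32.0%, and 1.99% of the genome lay that close to a start. The narrow share was below the middle share (difference -26.9 percentage points, interval -28.7 to -25.2) and below the wide share (difference -48.7 points, interval -49.6 to -47.8). By midpoint, a wide region can reach a start and still be counted elsewhere. Where 1 bp within 1000 bp of a start was enough, the shares were 4.46% for narrow and 82.6% for wide regions.

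A further 2763 narrow regions (27.4%, interval 26.5 to 28.3%) had the midpoint in a gene body, against 39.5% of middle and 37.9% of wide regions. Genes of this kind span 38.3% of the genome. The wide share includes regions that reach within 1000 bp of a start away from their midpoint. The remaining 6921 narrow regions (68.6%, interval 67.7 to 69.5%) were intergenic, against 29.5% of middle and 9.30% of wide regions. The difference was 39.1 points from the middle regions (interval 37.2 to 41.0) and 59.3 points from the wide regions (interval 58.2 to 60.3). The median distance to a protein-coding start was 154.2 kb for narrow regions, with quartiles of 32.0 and 383.8 kb, against 2.80 kb for middle regions and 64.6 kb for genome positions.

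**Figure D2:**
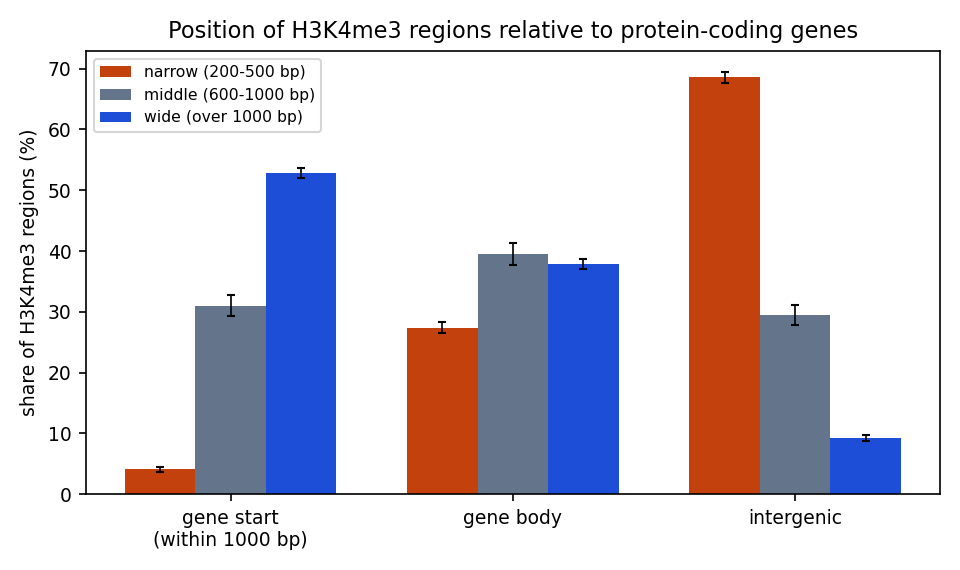
Share of narrow, middle and wide H3K4me3 regions (vertical axis, percent) with the midpoint within 1000 bp of a protein-coding start, in a gene body or between genes (horizontal axis). Bars are shares and whiskers exact 95% intervals for counting error. A wide region is placed by its midpoint, even where another part of it covers a start. Narrow regions are at 4.06%, 27.4% and 68.6%, and wide regions at 52.8%, 37.9% and 9.30%.

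Every narrow region was placed in 1 of 4 sets, taken in order. The first set was the 606 within 5000 bp of a wide region (6.004%). The second was 296 other regions at a protein-coding start (2.93%), the third 2381 other regions in a gene body (23.6%) and the last 6811 other regions between genes (67.5%). The sets differed in width. Regions of 200 bp were 15.4% of the first set, 40.2% of the second, 58.6% of the third and 61.9% of the last. Abutment on another H3K4me3 region also fell along this order, at 34.8%, 27.03%, 7.56% and 7.11%.

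The X chromosome held a different mixture. It had 173 narrow regions, 1.01 per Mb, while the autosomes ranged from 1.62 per Mb on chromosome 19 to 6.47 per Mb on chromosome 17. Of the X-linked narrow regions 98 (56.6%, interval 48.9 to 64.2%) lay within 5000 bp of a wide region, against 506 of 9919 on the autosomes (5.10%, interval 4.68 to 5.55%), a difference of 51.6 points (interval 44.1 to 58.7). At a gene start were 56 of the 173 (32.4%, interval 25.5 to 39.9%), against 3.56% on the autosomes, a difference of 28.8 points (interval 22.3 to 36.1). Narrow regions over 50000 bp from a wide region numbered 52 on the X chromosome, or 0.304 per Mb, against 3.74 per Mb on the autosomes. Chromosome 19, which had the lowest autosomal density, did not share the mixture: 5 of its 94 narrow regions (5.32%, interval 1.75 to 11.98%) lay within 5000 bp of a wide region. The X chromosome also had few narrow succinyllysine regions, 0.246 per Mb, and 2.22 wide H3K4me3 regions per Mb.

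Succinyllysine regions over 1000 bp, of which there were 1993, were rarely near a narrow H3K4me3 region. Within 5000 bp of one lay 29 narrow regions (0.287%, interval 0.193 to 0.412%), 6.84% of middle and 8.34% of wide H3K4me3 regions. Over all widths the share was 5.13%, and 0.692% of the genome lay that close. The narrow share was below the middle share (difference -6.55 points, interval -7.53 to -5.68) and below the wide share (difference -8.06 points, interval -8.54 to -7.59). At least 1 bp was shared by 7 narrow regions (0.0694%, interval 0.0279 to 0.143%), 3.11% of middle and 5.71% of wide regions. The median distance to a wide succinyllysine region was 1777 kb for narrow, 482.9 kb for middle and 346.8 kb for wide H3K4me3 regions, and 1461 kb for genome positions.

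Seen from the 1993 wide succinyllysine regions, 33 (1.66%, interval 1.14 to 2.32%) had a narrow H3K4me3 region within 5000 bp, 11.4% had a middle and 56.0% a wide one. The 29 narrow regions divided by their distance to wide H3K4me3: 19 came from the 606 within 5000 bp of it (3.14%, interval 1.90 to 4.85%) and 10 from the other 9488 (0.105%, interval 0.0506 to 0.194%). By place, 1 was at a gene start, 18 were in gene bodies and 10 were intergenic. Narrow H3K4me3 apart from wide H3K4me3 was therefore found at very few of the wide succinyllysine regions that might mark enhancers. Whether any of them is an enhancer was not tested.

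The 7 narrow regions that touched wide succinyllysine were spread over 5 chromosomes. Gas2, Tdpoz4 and Nlgn3 here, and Zfp600, Zfp981, Zfp991 and Zfp982 in the next paragraph, were named after their values were seen. The pair at chrX:74269401-74269800 and chrX:74269801-74270300 lay 1016 and 516 bp from the start of Rpl10, a ribosomal protein gene, and touched a 1500 bp succinyllysine region that had 3 narrow neighbours, the most of any. On chromosome 4 a 300 bp region at chr4:147351301-147351600, whose nearest gene end was that of Zfp978, abutted wide H3K4me3 and touched a 2500 bp succinyllysine region. The other 4 were over 5000 bp from wide H3K4me3. One at chr11:88235501-88236000 touched an 1100 bp succinyllysine region 31113 bp from the start of Mrps23, a mitochondrial ribosomal protein gene, and 28.8 kb from wide H3K4me3. Another, at chr7:51913301-51913800, lay in a gene body 34334 bp from the start of Gas2, inside a 1500 bp succinyllysine region and 31.4 kb from wide H3K4me3. The last ones lay at chr3:93806701-93807100, 10303 bp from the start of Tdpoz4, and at chrX:101332201-101332500, 10851 bp from an end of Nlgn3, which encodes a synaptic adhesion protein.

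The zinc finger gene cluster at the distal end of chromosome 4 held 6 of the 29, all in gene bodies, with Zfp600, Zfp981, Zfp991, Zfp982 and, for a pair, Zfp978 as the gene with the nearest start or end, 4715 to 228481 bp away. These genes have near-identical copies, and how reads were placed among copies is not known here, so positions in the cluster are uncertain. The remaining wide succinyllysine regions named by the rule each had 1 narrow H3K4me3 region within 5000 bp. They were 1 at the start of D2hgdh, which encodes the enzyme that oxidizes D-2-hydroxyglutarate, 1 lying 101 bp from the start of the exocyst gene Exoc3, and others far from starts. The last group comprised the Mrps23 region above, a pair with Akr1e1 as the nearest start from 162637 bp away, a pair nearest to an end of Farp1, and 1 whose nearest start was Adam6a, 1228593 bp away.

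Narrow succinyllysine regions, 7798 of up to 500 bp, behaved in the opposite way. Within 5000 bp of one lay 1920 narrow H3K4me3 regions (19.02%, interval 18.3 to 19.8%), 3.83% of middle and 0.769% of wide H3K4me3 regions, and 2.60% of the genome. The narrow share exceeded the middle share by 15.2 points (interval 14.1 to 16.2) and the wide share by 18.3 points (interval 17.48 to 19.04). The midpoint lay inside a narrow succinyllysine region for 231 narrow H3K4me3 regions (2.29%, interval 2.01 to 2.60%), 0.828% of middle and 0.0439% of wide regions, and such regions cover 0.0766% of the genome. The median distance to a narrow succinyllysine region was 26.3 kb for narrow H3K4me3 regions and 521.5 kb for genome positions.

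Nearness to narrow succinyllysine was more frequent among the remote narrow regions. A narrow succinyllysine region lay within 5000 bp of 20.1% of the intergenic set (interval 19.1 to 21.0%) and 21.3% of the gene body set (interval 19.6 to 22.9%). It did so for 6.76% of the set at starts (interval 4.18 to 10.2%) and 4.46% of the set beside wide regions (interval 2.96 to 6.42%). Width made little difference up to 400 bp, with 18.9%, 20.1% and 20.4% at 200, 300 and 400 bp, against 15.0% at 500 bp and 6.05% at 600 bp.

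**Figure D3:**
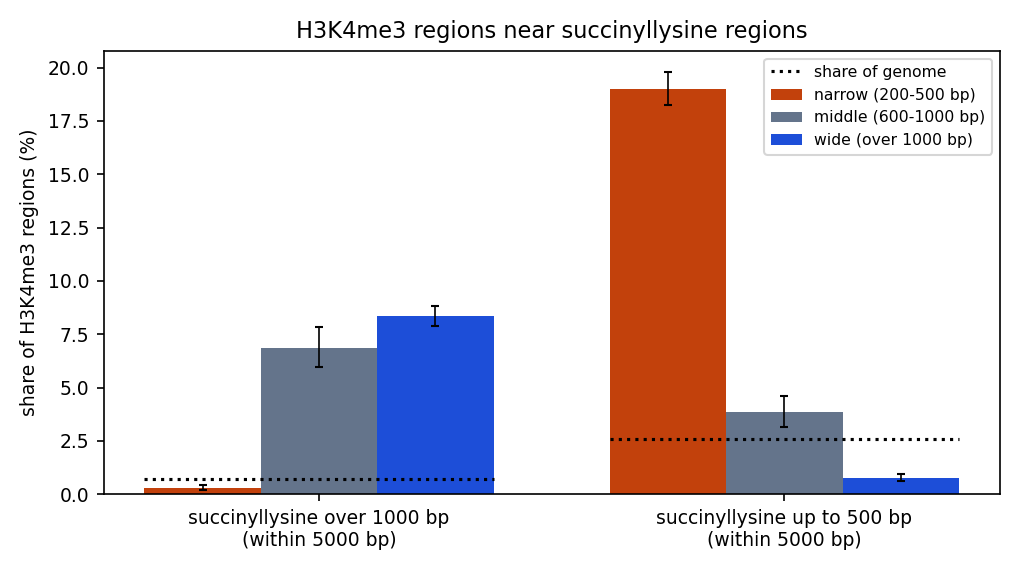
Share of narrow, middle and wide H3K4me3 regions (vertical axis, percent) within 5000 bp of a succinyllysine region over 1000 bp or up to 500 bp wide (horizontal axis), with exact 95% intervals for counting error and the share of the genome within the same distance as dotted lines. Narrow H3K4me3 regions are lowest beside wide succinyllysine, at 0.287%, and highest beside narrow succinyllysine, at 19.02%.

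Counts in windows of 1 Mb varied together in the same way. Over 2706 windows the Spearman correlation of the number of narrow H3K4me3 regions was 0.73 with narrow succinyllysine regions. It was 0.28 with H3K27me3 regions of up to 500 bp, -0.23 with wide H3K4me3 regions and -0.14 with protein-coding gene starts. On the 2444 autosomal windows these were 0.74, 0.21, -0.36 and -0.20, and on the 2396 windows with a gene 0.71, 0.30, -0.19 and -0.07, in the same order. These are descriptions, since neighbouring windows are not independent and all lists come from the same lines and chromatin, so a window has the same base composition in each. Base composition and depth were not measured here, and their part in the correlation was not tested.

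The narrow regions were concentrated. The 270 windows with the most narrow regions contained 58.7% of them, while the 270 windows with the most wide regions contained 40.7% of those. No narrow region was found in 1231 windows (45.5%), and no wide region in 715 (26.4%). Over windows of 10 Mb the median was 24 narrow regions. The highest was the window from 170 to 180 Mb of chromosome 2, with 349 narrow and 30 wide H3K4me3 regions and 139 narrow succinyllysine regions. The next highest, from 130 to 140 Mb of chromosome 6, had 195 narrow and 32 wide H3K4me3 regions and 130 narrow succinyllysine regions.

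**Figure D4:**
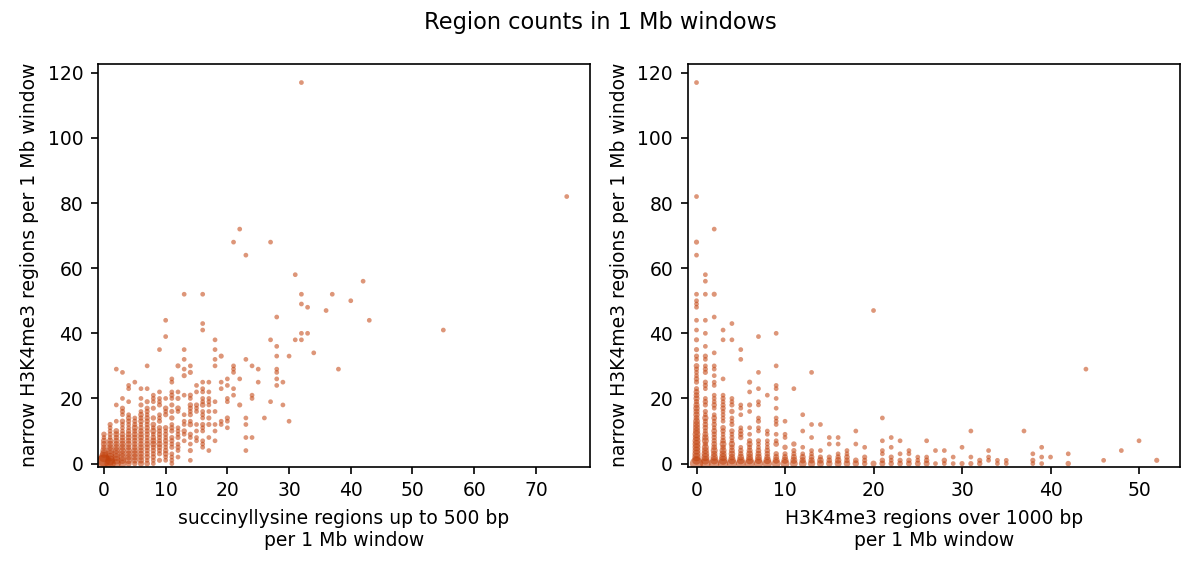
Number of narrow H3K4me3 regions in each 1 Mb window (vertical axes) against the number of succinyllysine regions up to 500 bp (left) and of H3K4me3 regions over 1000 bp (right) in the same window, over 2706 windows. Each point is a distinct pair of counts, and its area grows with the number of windows that share the pair. Points climb together on the left, where the Spearman correlation is 0.73, and hug both axes on the right, where it is -0.23.

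H3K27me3, the mark left by Polycomb repressive complex 2, was touched by 513 narrow regions (5.08%, interval 4.66 to 5.53%), 6.97% of middle and 3.13% of wide regions, and by 4.29% of H3K4me3 regions of all widths. The difference was -1.89 points from the middle regions (interval -2.96 to -0.912) and 1.95 points from the wide regions (interval 1.44 to 2.48). By midpoint, which depends less on width, the shares were 4.05% for narrow, 5.11% for middle and 1.18% for wide regions, and H3K27me3 covered 3.28% of the genome.

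The H3K27me3 regions that narrow regions met were mostly small. The midpoint lay in an H3K27me3 region of up to 500 bp for 293 narrow regions (2.90%), 0.828% of middle and 0.0220% of wide regions, and such regions cover 0.596% of the genome. It lay in one of over 1000 bp for 73 narrow regions (0.723%), 3.18% of middle and 1.03% of wide regions, and these cover 1.85% of the genome. Of the 73, 26 belonged to the 296 at starts away from wide H3K4me3 (8.78%, interval 5.82 to 12.6%), 23 to the 606 beside wide H3K4me3 (3.795%), 15 to the gene body set (0.630%) and 9 to the intergenic set (0.132%, interval 0.0604 to 0.251%).

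The 10 widest H3K27me3 regions touched by a narrow region were 9900 to 38000 bp wide, and 8 of them held the start or end of a protein-coding gene. The widest, chr19:45221401-45259400, held Lbx1, a homeobox gene of migrating muscle precursors, with a single 500 bp H3K4me3 region and no wide one. A 33700 bp region held Hoxb9 and a 17000 bp region held Six3, a forebrain and eye factor, and both of these also touched wide H3K4me3. Others without wide H3K4me3 held Zic4 (15000 bp), Esrrb (13900 bp), Foxa1 (11000 bp), Hmx2 (10700 bp, with narrow regions of 300 and 200 bp) and the blood regulator Gfi1 (9900 bp). Of the final pair, 1 lay on chromosome 1 and 1 on chromosome 18, and neither held a gene start.

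Considering all 3 lists at once, 9322 narrow regions (92.4%) touched neither other list, 455 touched H3K27me3 alone, 259 succinyllysine alone and 58 (0.575%) both. Most H3K4me3 regions of every width touched neither, with 87.71% of middle and 88.55% of wide regions. Both were touched by 0.863% of middle and 0.410% of wide regions. Succinyllysine of any width was touched by 317 narrow regions (3.14%), 6.18% of middle and 8.72% of wide regions.

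A narrow region was the widest H3K4me3 at the start of 226 of 21887 protein-coding genes (1.03%, interval 0.903 to 1.18%), against 415 genes with a middle region (1.90%), 11652 with a wide region (53.2%) and 9594 with none (43.8%). The region was 200 bp wide at 70 of them and 500 bp wide at 59. For 175 the start was annotated, and for the other 51 a gene end was used, since strand was not used for those genes. The start lay inside the narrow region for 36 of the 175.

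The gene lists, which were chosen with earlier results of these data known, held few such genes. A narrow region was the widest at 1 of 28 muscle genes (Dmd), 1 of 29 haematopoietic and endothelial genes (Fli1), 1 of 20 hepatocyte genes (Cyp3a11), 2 of 26 pluripotency and germline genes (Dazl and Esrrb) and 1 of 29 immediate-early genes (Egr4). It was so at none of the 30 fibroblast and matrix, 20 epithelial, 35 inflammatory, 28 tricarboxylic acid cycle, 49 cytosolic ribosomal protein and 18 olfactory, keratin-associated and defensin genes. Over all genes the share was 1.03%, and with at most 2 such genes in a list nothing particular to a list is read from these counts.

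Of these genes, Egr4 had a 7700 bp H3K27me3 region within 1000 bp of the start, and wide H3K4me3 was 57.2 kb away. It was the only immediate-early gene with narrow H3K4me3 alone, since 27 of the 29 had a wide and 1 a middle region. Fli1, an ETS factor of blood and endothelium, was the only one beside wide H3K4me3, 0.3 kb away, with a 4300 bp H3K27me3 region within 1000 bp of the gene end. Dmd, which encodes dystrophin, had no H3K27me3 and was 1877 kb from wide H3K4me3. The Dmd start used, at chrX:82948870, lies inside the gene, which begins at chrX:82814664. For Fli1, and for the phosphatase gene Ptprd, the region lay at a gene end whose strand was not used.

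The 10 such genes farthest from wide H3K4me3 were 1576 to 3363 kb from it. Slitrk5 was the farthest, and Slitrk2, of the same family of neuronal transmembrane proteins, was 2026 kb away with a 500 bp region 259 bp from the start and 17 CpG. Olfr1132 (2574 kb), Olfr1096 (1814 kb) and Olfr1215 (1576 kb) encode olfactory receptors, and each had a 200 bp region and at most 1 CpG. Pramel7, of the Prame family of early embryos, was 2431 kb away, and G6pd2, a glucose-6-phosphate dehydrogenase gene of the testis, was 2159 kb away, each with 1 CpG. Dmd and the receptor phosphatase gene Ptprd (1760 kb) were also among them. The olfactory and Prame genes have near copies, so their regions are uncertain. Of those named, Slitrk5 alone had H3K27me3, a 200 bp region.

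Among genes with an annotated start, H3K27me3 within 1000 bp was more frequent where the widest H3K4me3 was narrow. It was found at 59 of 175 such genes (33.7%, interval 26.8 to 41.2%), 92 of 316 with a middle region (29.1%), 224 of 9446 with a wide region (2.37%) and 1448 of 7555 with none (19.2%). Over all 17492 such genes the share was 10.4%. The narrow share exceeded the wide share by 31.3 points (interval 24.8 to 38.6) and the share without H3K4me3 by 14.6 points (interval 7.90 to 21.9). These comparisons were not matched for CpG count. Within each bin of CpG count given below, the share at starts without H3K4me3 lay within the interval of the narrow share. The difference from the middle genes was 4.60 points with an interval of -3.81 to 13.3, which includes 0.

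Succinyllysine was found within 1000 bp of 3 of the 175 narrow genes (1.71%, interval 0.355 to 4.93%), 2.53% of middle, 8.23% of wide genes and 0.913% of genes without H3K4me3. The difference from wide genes was -6.51 points (interval -7.78 to -3.26). The difference from genes without H3K4me3 was 0.801 points, with an interval of -0.354 to 4.01 that includes 0.

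Starts whose own widest H3K4me3 region was narrow were intermediate in base composition. Here each start was classed by itself, and the starts belonged to 180 genes, some with a wider H3K4me3 region at another start. Over 197 annotated protein-coding starts with a narrow region as the widest, the median CpG count in the 300 bases was 11 (95% interval of the median 8 to 13; quartiles 2 and 22) and the median GC share 56.0%. The median was 16 CpG at 376 starts with a middle region, 22 CpG and 62.3% GC at 11299 starts with a wide region, and 3 CpG and 48.7% GC at 9391 starts with none. The median rose with the width of the region, at 2, 7.5, 16 and 16 CpG for 200, 300, 400 and 500 bp.

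The median stood between ends of the range that were both well filled. Of the 197 starts, 63 (32.0%, interval 25.5 to 39.0%) had 0 to 4 CpG, 28 (14.2%) had 5 to 9 and 106 (53.8%, interval 46.6 to 60.9%) had 10 or more. With 10 or more CpG were 69.9% of middle, 89.0% of wide and 17.4% of unmarked starts, and with 0 to 4 CpG were 11.4%, 3.16% and 59.3% of the same classes. H3K27me3 within 1000 bp followed the CpG count: it was found at 51 of the 106 CpG-rich narrow starts (48.1%, interval 38.3 to 58.0%), 8 of the 28 between (28.6%) and 7 of the 63 CpG-poor ones (11.1%, interval 4.59 to 21.6%). At CpG-rich starts the share was 32.3% with a middle region, 2.405% with a wide region and 39.5% with none. At starts with 0 to 4 CpG it was 6.98% with a middle region, 1.40% with a wide region and 13.0% with none, the last within the interval of the narrow share. Esrrb and Egr4, printed above, belong to the starts with H3K27me3, and Cyp3a11 and Olfr1132 to the CpG-poor starts without it. Other olfactory receptor genes were also among the CpG-poor ones. Whether their annotated starts are transcription starts was not checked.

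**Figure D5:**
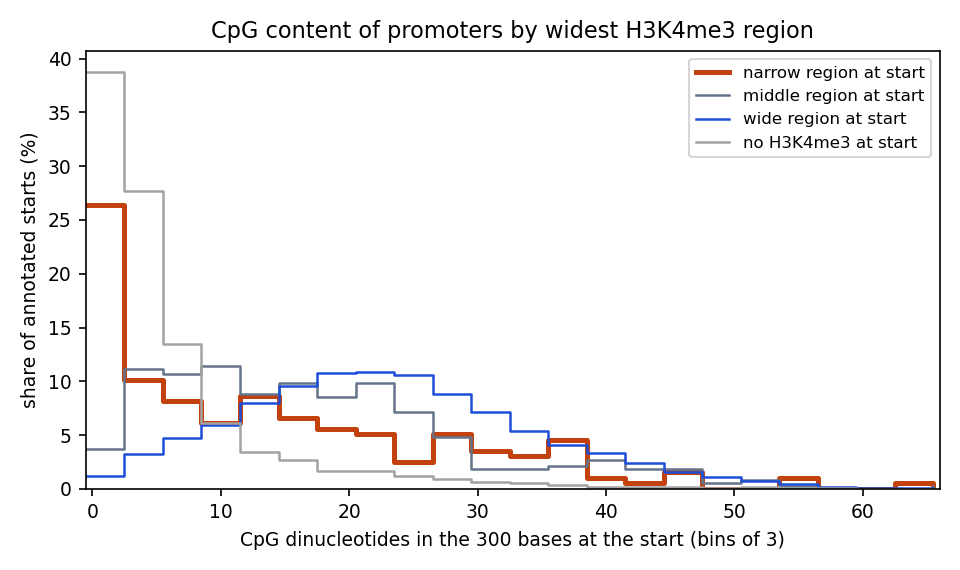
Share of annotated protein-coding starts (vertical axis, percent) by the number of CpG dinucleotides in the 300 bases at the start (horizontal axis, bins of 3), for starts whose widest H3K4me3 region within 1000 bp is narrow, middle, wide or absent. The narrow line has its peak in the lowest bin, like the starts without H3K4me3, and a long tail over the range of the wide starts, with a median of 11 against 22 for wide and 3 for none.

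Short motifs were counted in the same 300 bases on both strands. TATAAA, the core of the TATA box, was found at 28 of the 197 narrow starts (14.2%, interval 9.66 to 19.9%), 6.38% of middle, 6.20% of wide and 20.5% of unmarked starts, and at 12.6% of all starts. GGGCGG, the GC box, was found at 92 (46.7%, interval 39.6 to 53.9%), 57.7%, 68.9% and 18.4%, and at 46.2% of all starts. TGANTCA, the AP-1 core, was found at 14 (7.11%, interval 3.94 to 11.6%), 5.85%, 4.12% and 10.5%, and at 6.99% of all starts. For all 3 motifs the narrow share lay between that of the wide and that of the unmarked starts and near that of all promoters. A match describes the letters alone.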

How the data were processed

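The deposited files were lists of regions, 1 per antibody, whose values are start and end positions. Per the submitters' processing notes, the authors aligned reads with Bowtie2 version 2.2.3 to mm10. Region calling, its threshold, use of input and pooling of samples were not given in the sources used here. Starts ended in 01 and ends in 00, so both were taken as inclusive positions on a grid of 100 bp. Each list stands for 4 samples.

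Distances ran between nearest edges, and touching meant at least 1 shared bp. The genome was the span of all regions and genes on each chromosome. Starts came from a RefSeq promoter table of GRCm38.p6 for 17492 of 21887 protein-coding genes. For the other 4395 both gene ends were used. Shares carry exact Clopper-Pearson intervals, which cover counting error only, as read depth is unknown. No test over samples was possible. Python 3.11.15, numpy 2.4.6, pandas 2.3.3 and scipy 1.17.1 were used, and the procedures were tested on simulated data.

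The members, gene lists and alternatives were chosen with earlier results of these data known. Genes were named by a rule: up to 4 members of each list with only narrow H3K4me3 at the start, the 10 such genes farthest from wide H3K4me3, the nearest starts of the 10 wide succinyllysine and 5 wide H3K4me3 regions with most narrow neighbours, and the 10 widest H3K27me3 regions holding a narrow one. Genes named outside it are pointed out. Some genes that it names are not reported here. No region's own sequence was read, as the tables used here hold promoters only.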

Additional observations from a re-analysis of the deposited data

How the results depend on the processing

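In all 36 alternatives that give a value for another width class, the narrow value stayed on the same side of it. Of 42 alternatives, 13 stayed within the interval of the value reported, or within 1.5 times a gene count, which ranged from 156 to 321 beside 226. The share near wide H3K4me3 (6.004%) was 4.40% with wide set over 2000 bp, 8.26% with wide from 600 bp, 5.53% and 6.50% at limits of 2000 and 10000 bp, 12.02% for narrow regions of 300 to 500 bp, 3.64% for 200 to 400 bp, 5.10% on autosomes and 4.35% with abutting regions joined. The share at starts (4.06%) was 2.54% and 7.56% with windows of 500 and 2500 bp, 7.09% with all genes, 6.54% for 300 to 500 bp, 3.56% on autosomes, 3.18% with abutting regions joined and 3.17% with annotated starts alone. The intergenic share (68.6%) was 59.2% with all genes and 70.1% with abutting regions joined. The share near wide succinyllysine (0.287%) was 0.733% and 0.0991% with its minimum at 600 and 2000 bp, 0.0694% by overlap, 0.456% at 10000 bp, 0.633% for 300 to 500 bp and 0.105% over 5000 bp from wide H3K4me3. The H3K27me3 share (5.08%) was 4.45% by overlap of 50%, 4.05% by midpoint, 6.86% for 300 to 500 bp and 4.65% without regions touching succinyllysine. The median CpG count (11) was 14 with a 500 bp window and 14 for 300 to 500 bp. Joining, annotated starts alone and removal of succinyllysine were chosen after seeing the data. The narrow class is mostly 200 bp regions, so its shares move with the lower width limit.

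No paired analysis was possible because the lists hold no values per sample, and leaving out a replicate was not possible for the same reason. Read depth and signal are unknown, so weak and strong regions cannot be told apart, and whether a narrow region was found in fl/fl, fl/wt or both lines is unknown.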

Other observations

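Genes of over 500 kb held more narrow regions per Mb than shorter genes. Genes of over 500 kb contained 1198 narrow regions, 6.21 per Mb, in 124 of 227 genes, against 1.04 wide H3K4me3 regions per Mb. Genes of 100 to 500 kb contained 1054 narrow regions. They had 2.46 narrow and 4.63 wide regions per Mb, with a narrow region in 325 of 2202 genes. Genes of up to 100 kb contained 870 narrow regions. They had 2.03 narrow and 23.2 wide regions per Mb, with a narrow region in 694 of 19458 genes. A longer gene has more room for a region, so the share of genes with one would rise with length even at equal density. The whole span had 3.75 narrow and 5.07 wide regions per Mb. The genes with the most, chosen after their values were seen, were Ptprt, a receptor tyrosine phosphatase gene, with 59 narrow regions in 1139 kb, Sdk1, a synaptic adhesion gene, with 57 in 974.1 kb, and Clstn2, a calsyntenin gene, with 39 in 589.0 kb. None of the 3 held a wide region. Negr1 and Ptprn2 had 28 narrow regions each, and each held 1 wide region.

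Some gene families, likewise chosen after their values were seen, had narrow regions at starts. Of 1110 olfactory receptor genes 23 had a narrow region as the widest (2.07%), none had a wide one and 1087 had none. Over all protein-coding genes 226 had a narrow region as the widest and 9594 had none. These counts stand in a similar proportion, so nothing particular to olfactory receptors is read from the 23. For clustered protocadherin genes of the Pcdhb and Pcdhg groups the number with a narrow region as the widest was 5 of 43 (11.6%), all taken by gene ends. For cytochrome P450 genes it was 5 of 99 (5.05%), among them Cyp3a11, Cyp3a16 and Cyp3a25. For potassium channel genes it was 6 of 94 (6.38%), and all 6 (Kcna1, Kcna3, Kcnb2, Kcng1, Kcnj8 and Kcnma1) had H3K27me3 within 1000 bp of the start or gene end, beside 33.7% of the 175 narrow genes and 10.4% of all genes with an annotated start. It was 4 of 355 vomeronasal receptor genes (1.13%) and 18 of 1329 predicted genes (1.35%), near the 1.03% over all protein-coding genes. Near-identical copies make single members of the receptor, protocadherin and cytochrome families uncertain.

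At long noncoding RNA genes a narrow region was the widest at 79 annotated starts (0.682% of such starts), with a median of 4 CpG, close to the 3 CpG of starts with no H3K4me3, while 1725 starts with a wide region had 20. Of 1005 microRNA hairpins 8 lay within 1000 bp of a narrow region and 182 within 1000 bp of a wide one. Beside these, 1.03% of protein-coding genes had a narrow region as the widest at the start and 53.2% a wide one. The genome share within 1000 bp of a wide region was 2.61%. That share was not computed for narrow regions, so nothing particular to hairpins is read from the 8. Narrow regions followed each other closely in places: 384 of 10073 neighbouring pairs abutted, and the median gap was 35.7 kb.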
